A study of Mus musculus with 7 samples.

Results

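The 10 genes described here belong to the fat pad: Pparg, Cebpa, Lpl, Cd36, Fabp4, Car3, Plin1, Cidec, Adipoq and Lep. They were followed through 7 RNA-seq libraries of freshly sorted mouse fetal mammary cells. The genes were taken by symbol, and all 10 were found among the 38579 gene entries of the deposited expression table, each once. The cells came from CD1 mouse mammary rudiments at embryonic day E17.5 and are labelled as primary cells in every group, with no treatment named. In a sort on a Sox10-Venus fluorescent reporter and the epithelial surface protein EpCAM, the EpCAM-negative stroma (1 library, also Sox10-negative and lineage-negative by its title) was set against Sox10+EpCAM+ fetal mammary stem cells (fMaSC, a fraction enriched for these cells; 2 libraries). In a sort on the surface proteins CD24 and CD49f, CD24low lineage-negative stroma (2 libraries) was set against CD24+CD49f+ lineage-negative fMaSC (2 libraries), and the labels name no reporter for this sort. The labels call the libraries biological replicates without saying which embryos or litters each came from, and EpCAM-negative stroma has no replicate, so its values carry no SD and its spread in every test was taken from the other groups.

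White adipocytes arise from fibroblast-like precursors of the mesenchyme, and in the mouse the mammary fat pad precursor forms beneath the mammary bud before birth. Differentiation begins with C/EBP beta and delta, runs through the nuclear receptor PPAR gamma (Pparg) and C/EBP alpha (Cebpa), which maintain each other's expression, and proceeds to genes of fatty acid uptake, the lipid droplet and secreted adipokines. Pref-1 (Dlk1) marks preadipocytes and restrains the process, while leptin (Lep) rises late, as adipocytes fill with lipid.

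Promoter sequences of the upstream regulator Cebpa and of the adipokines Adipoq and Lep are shown because these 3 genes run from a regulator to secreted products and had very different levels in the same stroma. They are RefSeq sequences of build GRCm38.p6, read 5′ to 3′ on the gene's strand from 250 bases before to 50 bases after the annotated start. They lie on the plus strand at chr7:35119043-35119342 (Cebpa), chr16:23146286-23146585 (Adipoq) and chr6:29059971-29060270 (Lep). Capitals mark matches on either strand to TATAAA (the TATA box), CCAAT or TTGCGCAA (the palindrome bound by C/EBP proteins).
Cebpa promoter: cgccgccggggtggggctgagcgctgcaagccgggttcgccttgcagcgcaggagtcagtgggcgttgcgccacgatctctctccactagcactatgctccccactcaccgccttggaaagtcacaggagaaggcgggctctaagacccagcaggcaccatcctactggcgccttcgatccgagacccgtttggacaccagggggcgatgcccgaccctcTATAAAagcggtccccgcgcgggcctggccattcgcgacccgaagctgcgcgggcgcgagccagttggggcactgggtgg
Adipoq promoter: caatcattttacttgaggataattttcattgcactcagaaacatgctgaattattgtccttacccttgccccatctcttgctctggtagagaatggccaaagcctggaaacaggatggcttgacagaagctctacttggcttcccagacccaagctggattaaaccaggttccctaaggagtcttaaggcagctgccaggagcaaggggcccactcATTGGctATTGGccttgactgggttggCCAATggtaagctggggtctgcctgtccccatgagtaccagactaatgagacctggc
Lep promoter: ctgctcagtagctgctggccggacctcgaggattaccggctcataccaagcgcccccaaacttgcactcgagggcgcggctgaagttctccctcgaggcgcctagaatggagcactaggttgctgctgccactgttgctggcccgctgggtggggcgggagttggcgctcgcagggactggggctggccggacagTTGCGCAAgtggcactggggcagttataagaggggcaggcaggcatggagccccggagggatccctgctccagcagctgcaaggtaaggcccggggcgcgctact
The TATAAA match of Cebpa begins 30 bases upstream of the start, and 13.6% of the 32851 mouse promoter windows hold this motif. Adipoq holds 3 CCAAT matches, beginning 34, 27 and 7 bases upstream, a motif found in 37.4% of windows. Lep holds TTGCGCAA 55 bases upstream, as do 0.183% of windows, and it was the only one of the 7 members with a promoter entry to do so. None of the 10 promoter entries of these 7 members holds the direct repeat bound by PPAR proteins (AGGTCA, any base, AGGTCA, on either strand), which 0.0396% of windows hold. A match describes letters in this window, and binding was not measured.

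The deposited values are FPKM (fragments scaled to transcript length and to the number of mapped fragments), so that levels can be set side by side between genes. From the steps between the lowest values, the depth was estimated at 25.3 to 38.0 M fragments per library, and the number of genes at 1 FPKM or more was 12790 to 13639. The share of summed FPKM from mitochondrial genes was 6.23% in EpCAM-negative stroma, 10.9% and 17.7% in CD24low stroma, 19.0% and 15.6% in Sox10+EpCAM+ fMaSC, and 17.9% and 9.94% in CD24+CD49f+ fMaSC. Their part in the results below was not tested, and values without them are given beside a call for one of the 10 genes that turned on them. The labels were set against marker genes of each cell type. Epcam, the highest of the 8 epithelial genes by mean, encodes the protein on which the reporter sort was made, so it does not check those labels. Summed over 8 epithelial genes, the libraries had 7.39 FPKM in EpCAM-negative stroma and 3.71 and 2.77 FPKM in CD24low stroma, against 805 and 949 FPKM in Sox10+EpCAM+ fMaSC and 573 and 372 FPKM in CD24+CD49f+ fMaSC. Summed over 9 fibroblast genes, they had 7791 FPKM in EpCAM-negative stroma and 9099 and 9002 FPKM in CD24low stroma, against 84.6 and 124 FPKM in Sox10+EpCAM+ fMaSC and 2756 and 4202 FPKM in CD24+CD49f+ fMaSC. The CD24+CD49f+ libraries thus held both epithelial and fibroblast transcripts.

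All 10 genes were detected in each stroma library, lowest for Lep and highest for Car3 and Fabp4. Together they made up 0.331% of the summed FPKM of EpCAM-negative stroma and 0.481% and 0.412% of CD24low stroma, against 0.00389% and 0.00365% of Sox10+EpCAM+ fMaSC and 0.113% and 0.0894% of CD24+CD49f+ fMaSC. In every gene the lowest values were those of Sox10+EpCAM+ fMaSC, and both CD24+CD49f+ libraries lay above them. For 9 genes every stroma library lay above every fMaSC library. The exception was Fabp4, whose EpCAM-negative value lay just under that of 1 CD24+CD49f+ library. In sorted bulk samples, fewer cells of a type and less RNA per cell cannot be told apart.

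**Figure D1:**
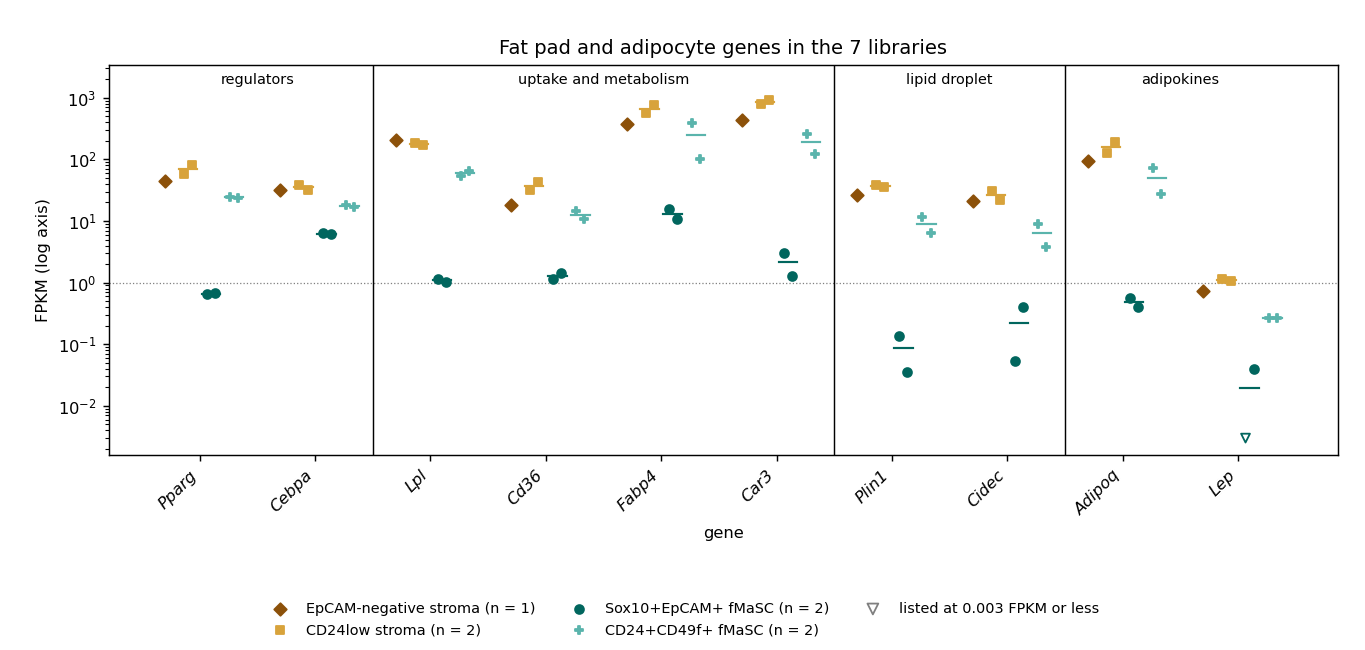
FPKM of the 10 genes (log axis) in each of the 7 libraries, grouped by role, with a horizontal bar at each group's mean and a dotted line at 1 FPKM. Sox10+EpCAM+ fMaSC (dark green circles) lie lowest for every gene, and Lep stays at or under 1.15 FPKM in all libraries.

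The regulators are given first. Pparg, the nuclear receptor required for adipocyte formation (chr6:115361221-115490401, GRCm38, plus strand), had 44.1 FPKM in EpCAM-negative stroma and 59.0 and 82.1 FPKM in CD24low stroma, against 0.647 and 0.668 FPKM in Sox10+EpCAM+ fMaSC and 24.5 and 23.9 FPKM in CD24+CD49f+ fMaSC. Cebpa, its partner (chr7:35119293-35121926, plus strand), had 31.8 FPKM in EpCAM-negative stroma and 38.8 and 31.3 FPKM in CD24low stroma, against 6.30 and 6.20 FPKM in Sox10+EpCAM+ fMaSC and 17.9 and 16.8 FPKM in CD24+CD49f+ fMaSC. Of the 10 genes Cebpa kept the most transcript outside the stroma: its mean in Sox10+EpCAM+ fMaSC was 19.6% of the EpCAM-negative value, where Pparg had 1.49%. Both loci overlap an antisense gene in GENCODE vM21 (Gm44079 at Pparg, Gm45091 at Cebpa), and the labels do not say whether reads were assigned by strand. The other 8 loci overlap no annotated gene.

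Lpl, Car3, Fabp4 and Cd36 act in lipid uptake and fatty acid handling or are abundant in fat. Lpl, the lipase that releases fatty acids from circulating lipoproteins (chr8:68880491-68907448, plus strand), had 204 FPKM in EpCAM-negative stroma and 186 and 173 FPKM in CD24low stroma, against 1.17 and 1.02 FPKM in Sox10+EpCAM+ fMaSC and 53.5 and 65.8 FPKM in CD24+CD49f+ fMaSC. Car3, a cytosolic carbonic anhydrase that slow muscle makes as well as fat (chr3:14863538-14872351, plus strand), had 436 FPKM in EpCAM-negative stroma and 798 and 905 FPKM in CD24low stroma, against 3.01 and 1.28 FPKM in Sox10+EpCAM+ fMaSC and 262 and 121 FPKM in CD24+CD49f+ fMaSC. Lpl differed little among the 3 stroma libraries, while both CD24low values of Car3 lay well above that of the EpCAM-negative library. Fabp4, a fatty acid carrier of adipocytes that capillary endothelium also makes (chr3:10204347-10208576, minus strand), had 379 FPKM in EpCAM-negative stroma and 557 and 774 FPKM in CD24low stroma, against 15.8 and 10.7 FPKM in Sox10+EpCAM+ fMaSC and 388 and 103 FPKM in CD24+CD49f+ fMaSC. Cd36, a fatty acid translocase shared with endothelium and macrophages (chr5:17781690-17888959, minus strand), had 18.5 FPKM in EpCAM-negative stroma and 31.5 and 43.2 FPKM in CD24low stroma, against 1.15 and 1.42 FPKM in Sox10+EpCAM+ fMaSC and 14.5 and 10.7 FPKM in CD24+CD49f+ fMaSC.

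Marker genes of other cell types that use some of these genes were measured beside them. The 10 endothelial genes summed to 19.4 FPKM in EpCAM-negative stroma and 36.6 and 31.3 FPKM in CD24low stroma, against 9.47 and 10.03 FPKM in Sox10+EpCAM+ fMaSC and 46.7 and 38.9 FPKM in CD24+CD49f+ fMaSC. The 10 skeletal muscle genes summed to 21.6 FPKM in EpCAM-negative stroma and 19.6 and 26.0 FPKM in CD24low stroma, against 0.838 and 2.86 FPKM in Sox10+EpCAM+ fMaSC and 13.7 and 5.37 FPKM in CD24+CD49f+ fMaSC. The sum of 8 macrophage and leukocyte genes was 3.52 to 19.6 FPKM across the libraries. In each stroma library these sums lay below Fabp4, Car3 and Lpl, while the endothelial sums were of the order of the stromal levels of Cd36. A marker sum does not measure how much Fabp4, Car3, Lpl or Cd36 transcript came from that cell type. The 6 pericyte genes summed to 141 FPKM in EpCAM-negative stroma and 127 and 150 FPKM in CD24low stroma, against 40.1 and 46.8 FPKM in Sox10+EpCAM+ fMaSC and 75.9 and 64.5 FPKM in CD24+CD49f+ fMaSC. By the test and filter described below, 3 of 10 endothelial genes, 5 of 6 pericyte genes and 3 of the 6 muscle genes tested were higher in EpCAM-negative stroma than in Sox10+EpCAM+ fMaSC, against 13.6% of all genes tested. In CD24low stroma against CD24+CD49f+ fMaSC, 1 endothelial, 2 pericyte and 1 muscle gene were higher and 1 endothelial gene lower. There 2.94% of all genes tested were higher and 7.78% lower. Emcn, Acta1 and Myog, called in the first comparison, reached 1 FPKM in stroma libraries alone. The part of these cell types in the fat gene differences was not tested.

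Of the lipid droplet genes, Plin1, perilipin, which coats the droplet and gates lipolysis (chr7:79721164-79732776, minus strand), had 26.9 FPKM in EpCAM-negative stroma and 37.9 and 35.4 FPKM in CD24low stroma, against 0.138 and 0.0361 FPKM in Sox10+EpCAM+ fMaSC and 11.5 and 6.32 FPKM in CD24+CD49f+ fMaSC. Cidec, which fuses droplets toward the single large droplet of a white adipocyte (chr6:113424634-113435760, minus strand), had 20.9 FPKM in EpCAM-negative stroma and 30.3 and 21.7 FPKM in CD24low stroma, against 0.0543 and 0.396 FPKM in Sox10+EpCAM+ fMaSC and 8.84 and 3.85 FPKM in CD24+CD49f+ fMaSC. Both genes lay under 1 FPKM in each Sox10+EpCAM+ library and apart from all other libraries.

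The adipokines lay at opposite ends. Adipoq, adiponectin (chr16:23146536-23158028, plus strand), had 93.9 FPKM in EpCAM-negative stroma and 129 and 188 FPKM in CD24low stroma, against 0.565 and 0.408 FPKM in Sox10+EpCAM+ fMaSC and 71.3 and 27.9 FPKM in CD24+CD49f+ fMaSC. Lep, leptin (chr6:29060220-29073877, plus strand), had 0.730 FPKM in EpCAM-negative stroma and 1.15 and 1.06 FPKM in CD24low stroma, against Sox10+EpCAM+ fMaSC values of 0.0395 FPKM in replicate 2 and a listing at 0 in replicate 1, and CD24+CD49f+ fMaSC values of 0.266 and 0.265 FPKM. At the estimated depth the stromal Lep values correspond to about 63, 107 and 82 fragments, so Lep was measured at a low level and was not at the limit of detection there. Ranked by FPKM among all entries of its library, Lep stood at place 13714 in EpCAM-negative stroma and at places 12815 and 12747 in CD24low stroma, where Adipoq stood at place 592 and at places 431 and 398.

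Stroma was then compared with fMaSC within each sort, to ask how far the fat genes separate stroma from epithelium. Expression was tested as log2(FPKM + 1) with limma, two-sided, with Benjamini-Hochberg adjustment over 14418 genes at 1 FPKM or more in at least 2 libraries, and adjusted p under 0.05 is called a change. All 10 genes passed this filter, Lep only through its CD24low stroma libraries, and the other 9 also through fMaSC libraries. The added 1 understates the change of genes under about 1 FPKM, as 5 of the 10 are in both Sox10+EpCAM+ libraries.

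As means, Pparg was at 70.6 ± 16.3 FPKM in CD24low stroma, 0.657 ± 0.0147 FPKM in Sox10+EpCAM+ fMaSC and 24.2 ± 0.458 FPKM in CD24+CD49f+ fMaSC (SD, n = 2 each). Adipoq was at 159 ± 41.9 FPKM in CD24low stroma, 0.487 ± 0.111 FPKM in Sox10+EpCAM+ fMaSC and 49.6 ± 30.7 FPKM in CD24+CD49f+ fMaSC (SD, n = 2 each).

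In the reporter sort all 10 genes were higher in EpCAM-negative stroma than in Sox10+EpCAM+ fMaSC, 9 of 9 without Lep, where 13.6% of all genes tested were called higher, 12.5% lower and 26.1% in either direction. Car3 had the largest log2 fold, 7.18 (SE 0.54, limma adjusted p = 0.000566), followed by Lpl with 6.61 (SE 0.23, limma adjusted p = 0.00026). Adipoq was higher by 6.0 (SE 0.54, limma adjusted p = 0.000991) and Pparg by 4.77 (SE 0.25, limma adjusted p = 0.000276). Lep had the smallest fold, 0.76 (SE 0.17, limma adjusted p = 0.0216). The median log2 fold of the 10 genes was 4.72, against -0.09 over all genes tested. As an untransformed level, the mean of Sox10+EpCAM+ fMaSC ran from 0.325% (Plin1) to 19.6% (Cebpa) of the EpCAM-negative value. The call for Lep was lost without either Sox10+EpCAM+ library (limma adjusted p = 0.144 without replicate 1 and 0.117 without replicate 2), and the other 9 calls were kept in every alternative that could be fitted.

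In the CD24 and CD49f sort 8 of the 10 genes were higher in CD24low stroma than in CD24+CD49f+ fMaSC, 7 of 9 without Lep, where 2.94% of all genes tested were called higher, 7.78% lower and 10.7% in either direction. Pparg was higher by 1.49 on the log2 scale (SE 0.20, limma adjusted p = 0.00832), Lpl by 1.58 (SE 0.19, limma adjusted p = 0.00532) and Car3 by 2.25 (SE 0.44, limma adjusted p = 0.029). Adipoq had a fold of 1.78 (SE 0.44, limma adjusted p = 0.0581) and Fabp4 of 1.71 (SE 0.62, limma adjusted p = 0.155), so neither passed. For both, each CD24low value lay above each CD24+CD49f+ value, and the CD24+CD49f+ replicates differed from one another by more than 2-fold. The median log2 fold of the 10 genes was 1.64, against -0.13 over all genes tested. The count of 8 rested on few libraries, and was 1 without CD24low replicate 2, 3 without CD24low replicate 1 and 4 without either Sox10+EpCAM+ library, which enters this comparison only through the spread. With no filter on low values 5 were called, with mitochondrial genes left out 9 (Fabp4 and Adipoq gained, Cebpa lost at limma adjusted p = 0.1), and every fold stayed positive in all alternatives run. Fibroblast genes were called higher for 3 of 9 in this sort and for 8 of 9 in the reporter sort, and their part in the result was not tested.

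**Figure D2:**
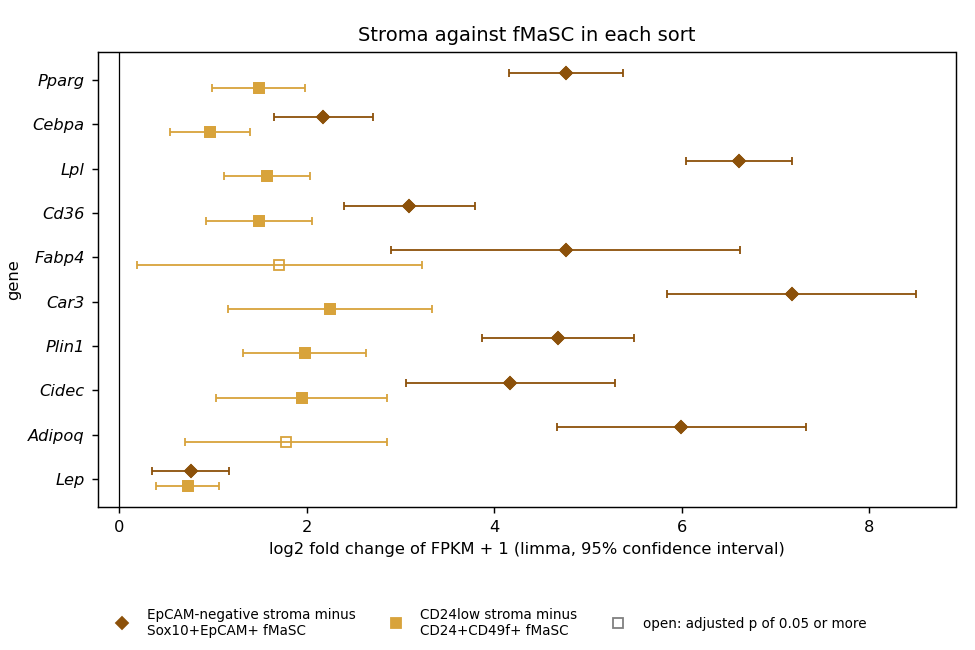
Log2 fold change of FPKM + 1 between stroma and fMaSC for the 10 genes, with 95% confidence intervals from limma, in the reporter sort (brown diamonds) and in the CD24 and CD49f sort (yellow squares). Open squares mark Fabp4 and Adipoq, which did not pass in the CD24 and CD49f sort, and the intervals of Lep in the 2 sorts overlap.

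The stroma fractions were set against each other to ask whether sorting on the reporter and EpCAM or on CD24 gave stroma with different fat gene levels. None of the 10 genes passed between EpCAM-negative stroma and CD24low stroma by limma, where 4 of the 14418 genes tested (0.0277%) were called. At an unadjusted p under 0.05 there were 436 genes, 2 of the 10 among them, Cd36 (log2 fold -0.96, 95% interval -1.66 to -0.26) and Pparg (-0.65, interval -1.25 to -0.04). Of the 10 genes, 8 had an EpCAM-negative value below both CD24low values, Lpl had one above both, and Cebpa had one between them. The median log2 fold was -0.54, against -0.01 over all genes tested. The intervals leave wide room either way: Fabp4 had -0.79 (interval -2.66 to 1.07), Car3 -0.96 (interval -2.29 to 0.37) and Adipoq -0.73 (interval -2.05 to 0.60). With 1 EpCAM-negative library, the sort and that library cannot be told apart, and the direction for Cebpa (-0.13) turned when all libraries were scaled to one summed value (TPM, 0.15) and without CD24low replicate 1 (0.022).

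Between the epithelial fractions, 9 of the 10 genes were lower in Sox10+EpCAM+ fMaSC than in CD24+CD49f+ fMaSC, where 8.04% of all genes tested were called lower and 9.99% in either direction. Car3 was lower by 5.89 on the log2 scale (fold -5.89, SE 0.44, limma adjusted p = 0.00176), Adipoq had a fold of -4.94 (SE 0.44, limma adjusted p = 0.00276) and Pparg of -3.93 (SE 0.20, limma adjusted p = 0.000873). Cebpa had the smallest called fold, -1.34 (SE 0.18, limma adjusted p = 0.00841), and Lep, with -0.31 (SE 0.14, limma adjusted p = 0.249), did not pass. The median fold was -3.49, against -0.01 over all genes tested. Fibroblast genes moved the same way, 8 of 9 being lower in Sox10+EpCAM+ fMaSC, and their part in the result was not tested. The calls for Cebpa, Cidec and Fabp4 were lost without either Sox10+EpCAM+ library. That for Cebpa was also lost with TPM scaling (limma adjusted p = 0.117) and without mitochondrial genes (0.068). Those for Cidec (limma adjusted p = 0.072) and Fabp4 (0.0836) were also lost with no filter on low values. The other 6 calls were kept in all alternatives run.

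Set against the stroma of its own sort, fat transcript in CD24+CD49f+ fMaSC ran from 22.5% (Car3) to 49.5% (Cebpa) of the CD24low mean, with a median of 32.2% over the 10 genes. For the 9 fibroblast genes the median was 38.3%, with a range of 32.6% to 94.7%. In Sox10+EpCAM+ fMaSC the medians were 1.29% for the fat genes and 1.05% for the fibroblast genes of the EpCAM-negative value. Within CD24+CD49f+ fMaSC, 9 of the 10 fat genes had higher FPKM in replicate 1 (all but Lpl), and 8 of the 9 fibroblast genes in replicate 2 (all but Dpt). Summed FPKM was 752737 in replicate 1 and 424984 in replicate 2, and these counts were not scaled for it. As shares of summed FPKM, Pparg, Cebpa, Cd36 and Lep joined Lpl in being higher in replicate 2, and Dpt joined the other fibroblast genes. The fat genes as a set therefore did not follow replicate 1 by this measure. Pparg, Cebpa and Lep differed little between the replicates. As shares of summed FPKM in replicates 1 and 2, the fat genes together made up 0.113% and 0.0894%, with Fabp4 and Car3 the largest among them. The fibroblast genes made up 0.366% and 0.989%. Fabp4 was at 58.4% of the CD24low mean in replicate 1 and 15.5% in replicate 2, while Pparg was at 34.7% and 33.8%. All 10 skeletal muscle genes also had higher FPKM in replicate 1 than in replicate 2, as did 7 of 8 epithelial genes. By share of summed FPKM the muscle genes made up 0.00181% of replicate 1 and 0.00126% of replicate 2. The epithelial genes went the other way by this share, with 0.0761% and 0.0876%.

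**Figure D3:**
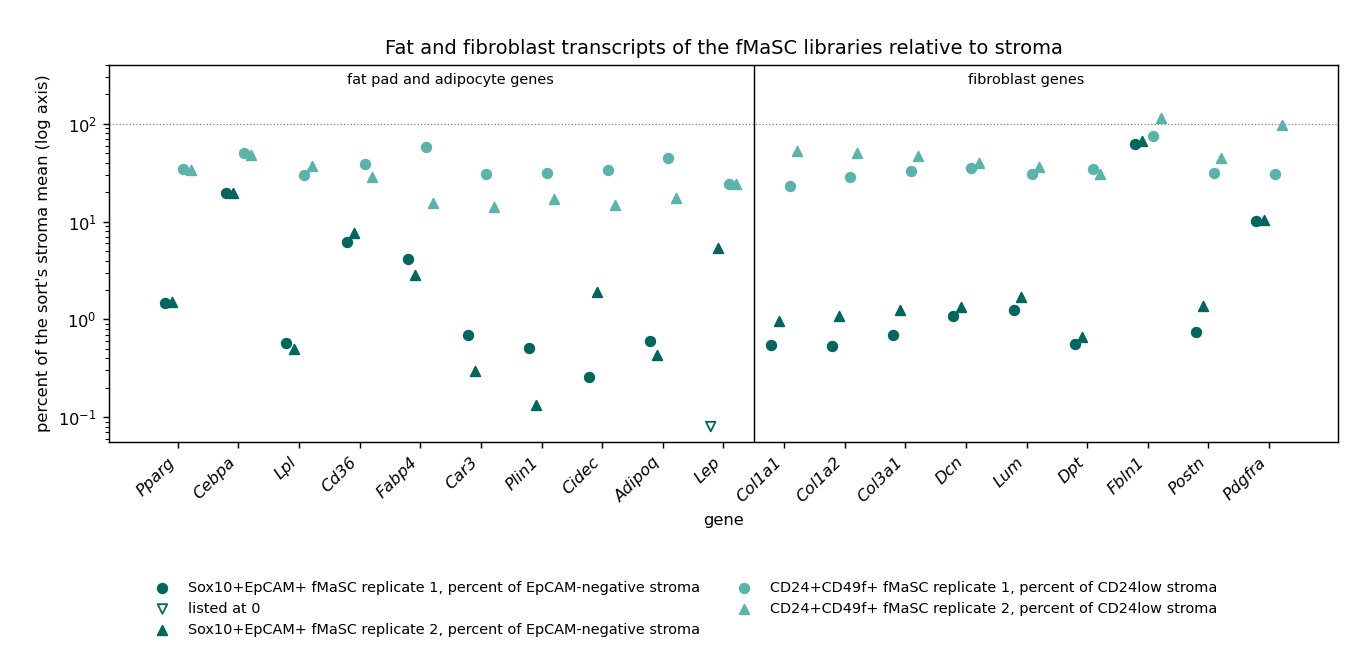
Level of each fMaSC library as a percent of the mean of its own sort's stroma (log axis), for the 10 fat genes and 9 fibroblast genes, with a dotted line at 100%. CD24+CD49f+ values (light green) lie between 14.2% and 58.4% for the fat genes, and Sox10+EpCAM+ values (dark green) lie between 0.134% and 19.8% apart from Lep replicate 1, listed at 0.

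The stroma-minus-fMaSC fold itself was larger in the reporter sort for 4 genes, where 1.44% of all genes tested had a larger fold and 1.51% differed in either direction. The difference between the sorts was 5.03 on the log2 scale for Lpl (SE 0.30, limma adjusted p = 0.0058), 4.93 for Car3 (SE 0.70, limma adjusted p = 0.0367), 3.28 for Pparg (SE 0.32, limma adjusted p = 0.017) and 2.70 for Plin1 (SE 0.43, limma adjusted p = 0.0482). Adipoq had 4.22 (SE 0.70, limma adjusted p = 0.055) and did not pass. Without mitochondrial genes Adipoq passed (limma adjusted p = 0.0143) and Plin1 did not (0.0792). Plin1 was also lost with no filter (limma adjusted p = 0.12), TPM scaling (0.115), TMM scaling (0.053), quantile normalization (0.115) and no trend (0.0555). Pparg was lost with TPM scaling (limma adjusted p = 0.0593) and Car3 with no filter (0.107). The 2 within-sort comparisons contrast different libraries but share one estimate of spread, so they are not independent tests, and this difference draws on all 7 libraries. The same difference was called for 7 of 9 fibroblast genes, and their part in the result was not tested. No fat gene call remained when either CD24low library or either Sox10+EpCAM+ library was left out, and 7 genes were called without CD24+CD49f+ replicate 2.

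Of 16 transcription factors of the adipocyte programme other than Pparg and Cebpa, 8 were higher and 1 lower in EpCAM-negative stroma than in Sox10+EpCAM+ fMaSC, and 1 was higher and 1 lower in CD24low stroma than in CD24+CD49f+ fMaSC. All genes tested had 13.6% higher and 12.5% lower in the first comparison, and 2.94% and 7.78% in the second. Ebf1, a factor of early adipocyte precursors, had 28.4 FPKM in EpCAM-negative stroma and 26.8 and 26.1 FPKM in CD24low stroma, against 0.212 and 0.387 FPKM in Sox10+EpCAM+ fMaSC and 9.41 and 20.0 FPKM in CD24+CD49f+ fMaSC. Its relative Ebf2 was also higher in EpCAM-negative stroma (log2 fold 3.93, SE 0.48, limma adjusted p = 0.00261). Nr1h3, the oxysterol receptor LXR alpha, was called higher in both sorts, by 3.19 (SE 0.30, limma adjusted p = 0.00114) in the reporter sort and 1.44 (SE 0.25, limma adjusted p = 0.0184) in the CD24 and CD49f sort. The second call was lost with no filter on low values (limma adjusted p = 0.0772), without CD24low replicate 1 or 2 (0.0955 and 0.121) and without Sox10+EpCAM+ replicate 1 or 2 (0.0572 and 0.0533), which left 0 factors called higher in that sort. Klf5, which acts early in adipogenesis and is also made by epithelium, was lower in stroma in both, with folds of -3.14 (SE 0.26, limma adjusted p = 0.000772) and -2.47 (SE 0.21, limma adjusted p = 0.00187). The factors that open differentiation in culture, Cebpb and Cebpd, were abundant in every library, Cebpb at 42.2 to 56.3 FPKM and Cebpd at 43.4 to 150 FPKM. Neither passed in any of these comparisons.

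Of the precursor genes, Dlk1, the preadipocyte factor Pref-1, had 2366 FPKM in EpCAM-negative stroma and 2994 and 3129 FPKM in CD24low stroma, against 97.8 and 114 FPKM in Sox10+EpCAM+ fMaSC and 1121 and 2165 FPKM in CD24+CD49f+ fMaSC. It ranked 8, 8 and 17 among all entries of the 3 stroma libraries and was the most abundant gene of both the progenitor list and the list of genes that restrain adipogenesis. It was higher in EpCAM-negative stroma (log2 fold 4.48, SE 0.59, limma adjusted p = 0.00344, and 0.0528 without Sox10+EpCAM+ replicate 1), and in the CD24 and CD49f sort its fold of 0.97 (SE 0.48, limma adjusted p = 0.279) did not pass. Of 14 progenitor genes, 13 were tested, of which 9 were higher and 2 lower in the reporter sort and 6 higher and 1 lower in the CD24 and CD49f sort. The shares over all genes tested were 13.6% higher and 12.5% lower in the reporter sort, and 2.94% and 7.78% in the other. Dpp4, called higher in both sorts, reached 1 FPKM outside stroma in CD24+CD49f+ replicate 1 alone. It passed the filter on low values through the group in which it was higher. Cd34, a surface protein of adipocyte progenitors and of endothelium, was higher by 5.64 (SE 0.22, limma adjusted p = 0.00026) and 2.09 (SE 0.18, limma adjusted p = 0.00175), and Pdgfrb, a receptor of perivascular precursors, by 5.09 (SE 0.30, limma adjusted p = 0.000319) and 1.63 (SE 0.24, limma adjusted p = 0.0113, and 0.0532 without CD24low replicate 1). Dpt, a matrix protein of fibroblasts, had 337 FPKM in EpCAM-negative stroma and 376 and 505 FPKM in CD24low stroma. Cd24a, lower in stroma in both sorts, encodes the protein on which one of the sorts was made. Icam1 and Itgb1 did not pass, and Tcf21, a visceral fat precursor gene, stayed under 1 FPKM in all libraries.

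Of 13 genes that restrain adipogenesis, 12 were tested, of which 3 were higher and 1 lower in the reporter sort and 1 higher and 1 lower in the CD24 and CD49f sort. Of all genes tested, 13.6% were higher and 12.5% lower in the reporter sort, and 2.94% and 7.78% in the other. The 3 higher in the reporter sort became 0 without Sox10+EpCAM+ replicate 1 and 1 without replicate 2. Wnt10b, a Wnt ligand that holds preadipocytes undifferentiated, had 1.67 FPKM in EpCAM-negative stroma and 3.52 and 3.85 FPKM in CD24low stroma, against 0.212 and 0.267 FPKM in Sox10+EpCAM+ fMaSC and 0.491 and 0.382 FPKM in CD24+CD49f+ fMaSC. It reached 1 FPKM in the stroma libraries alone, and so passed the filter on low values through the group in which it was higher. Its folds were 1.11 (SE 0.18, limma adjusted p = 0.00737) and 1.71 (SE 0.15, limma adjusted p = 0.00187), the first call lost without Sox10+EpCAM+ replicate 1 (limma adjusted p = 0.0659) or replicate 2 (0.0553). Gata3, which restrains preadipocytes and also specifies luminal mammary epithelium, had 0.507 FPKM in EpCAM-negative stroma and 0.457 and 0.139 FPKM in CD24low stroma, against 27.98 and 30.3 FPKM in Sox10+EpCAM+ fMaSC and 14.6 and 17.1 FPKM in CD24+CD49f+ fMaSC. Klf2 was higher in the reporter sort (1.41, SE 0.27, limma adjusted p = 0.0121, and 0.087 and 0.0631 without Sox10+EpCAM+ replicate 1 and 2) and did not pass in the other, and the difference between the sorts, 0.60, did not pass either (limma adjusted p = 0.51). Hes1 and Ddit3 did not pass.

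Enzymes of lipid storage were the next list. Of 18 genes of fatty acid and triglyceride synthesis, 6 were higher and 0 lower in EpCAM-negative stroma, and 4 were higher and 0 lower in CD24low stroma. Among all genes tested, 13.6% were higher and 12.5% lower in EpCAM-negative stroma, and 2.94% and 7.78% in CD24low stroma. The genes that passed in both sorts were Gpd1, Acsl1, Pck1 and Dgat2, which supply glycerol 3-phosphate, activate fatty acids or complete triglycerides. In the CD24 and CD49f sort 1 of these 4 calls was left without either CD24low library or without either Sox10+EpCAM+ library. Gpd1 was lost there in each of these cases (limma adjusted p = 0.0565 to 0.124), Acsl1 without CD24low replicate 2 (0.0526), and Pck1 in 7 of 14 alternatives. In the reporter sort Pck1 was lost with no filter (limma adjusted p = 0.0961) and without Sox10+EpCAM+ replicate 1 or 2 (0.118 and 0.105), and 1 fMaSC library held it above 1 FPKM, so that it passed the filter through the stroma libraries. Gpd1 had 73.2 FPKM in EpCAM-negative stroma and 125 and 92.0 FPKM in CD24low stroma, against 1.03 and 0.983 FPKM in Sox10+EpCAM+ fMaSC and 37.5 and 18.1 FPKM in CD24+CD49f+ fMaSC. Agpat2, an acyltransferase of triglyceride assembly, was higher in the reporter sort (2.25, SE 0.35, limma adjusted p = 0.0058). Scd2, a desaturase, had a fold of 0.30 (SE 0.37, limma adjusted p = 0.561) in the reporter sort, and Fasn, fatty acid synthase, 0.78 (SE 0.38, limma adjusted p = 0.177), and neither passed. Fasn had 56.4 FPKM in EpCAM-negative stroma and 59.7 and 43.0 FPKM in CD24low stroma, against 31.6 and 33.2 FPKM in Sox10+EpCAM+ fMaSC and 31.5 and 54.6 FPKM in CD24+CD49f+ fMaSC.

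Lipolysis genes were detected beside those of storage. Of 8, 7 were higher in EpCAM-negative stroma and 5 in CD24low stroma, with none lower, where 13.6% and 2.94% of all genes tested were called higher. Adrb3, called in both sorts, reached 1 FPKM in stroma libraries alone. It passed the filter on low values through the group in which it was higher. Pnpla2, the lipase of the first step, had 32.6 FPKM in EpCAM-negative stroma and 46.6 and 37.4 FPKM in CD24low stroma, against 9.38 and 8.82 FPKM in Sox10+EpCAM+ fMaSC and 18.5 and 11.2 FPKM in CD24+CD49f+ fMaSC, and its reporter-sort call was lost without Sox10+EpCAM+ replicate 1 or 2 (limma adjusted p = 0.066 and 0.0704). Lipe, the hormone-sensitive lipase of the next step, was higher by 3.19 (SE 0.43, limma adjusted p = 0.00353) and 1.80 (SE 0.35, limma adjusted p = 0.0264), the second call lost in 5 of 15 alternatives. G0s2, an inhibitor of that first lipase, was the most abundant gene of the list, with 43.6 FPKM in EpCAM-negative stroma and 69.5 and 79.1 FPKM in CD24low stroma. Aqp7, the glycerol channel, had 0.885 FPKM in EpCAM-negative stroma and 2.17 and 1.69 FPKM in CD24low stroma and did not pass in either sort. Of 12 further lipid droplet genes 9 were tested, of which 5 were higher in EpCAM-negative stroma and 3 in CD24low stroma, against 13.6% and 2.94% of all genes tested. Plin2, the perilipin of small droplets in many cell types, had 80.5 FPKM in EpCAM-negative stroma and 85.4 and 99.7 FPKM in CD24low stroma, against 18.9 and 15.6 FPKM in Sox10+EpCAM+ fMaSC and 43.4 and 31.3 FPKM in CD24+CD49f+ fMaSC. Plin4 (6.01 FPKM in EpCAM-negative stroma, 8.86 and 4.72 FPKM in CD24low stroma) and Fitm2 (7.89 FPKM, and 9.35 and 7.93 FPKM) were called higher in both sorts. In the CD24 and CD49f sort the Plin4 call was lost in 8 of 15 alternatives, TPM scaling among them (limma adjusted p = 0.0753). The Fitm2 call was lost there in 7 of 15, TPM scaling and leaving out mitochondrial genes among them (limma adjusted p = 0.241 and 0.136). Ptrf (Cavin1), a coat protein of caveolae, was higher in the reporter sort (4.09, SE 0.30, limma adjusted p = 0.000523). Cav1, the most abundant gene of the droplet list, and Plin3 did not pass in either sort. Cav1 had 141 FPKM in EpCAM-negative stroma and 208 and 254 FPKM in CD24low stroma. Its fMaSC values were 98.0 and 101 FPKM in Sox10+EpCAM+ and 144 and 86.6 FPKM in CD24+CD49f+. Plin3 lay between 14.0 and 24.4 FPKM in all libraries.

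Of 14 genes usually counted as late adipocyte genes, 11 were higher in EpCAM-negative stroma and 6 in CD24low stroma, with none lower. Of these 14 genes, 3 are also in the lipolysis list, and Slc2a4 is also in the synthesis list. Over all genes tested, 13.6% and 2.94% were called higher and 12.5% and 7.78% lower. Adrb3 and Pnpla3 reached 1 FPKM in stroma libraries alone, and Tusc5 outside stroma in CD24+CD49f+ replicate 1 alone. These genes, called in both sorts, passed the filter on low values through the group in which they were higher. The median log2 fold of the list was 2.93 in the reporter sort and 1.01 in the CD24 and CD49f sort. Retn, resistin, had 20.3 FPKM in EpCAM-negative stroma and 18.6 and 31.8 FPKM in CD24low stroma, against 0.172 and 0.196 FPKM in Sox10+EpCAM+ fMaSC and 13.7 and 4.32 FPKM in CD24+CD49f+ fMaSC. Cfd, adipsin, had 30.4 FPKM in EpCAM-negative stroma and 32.9 and 27.9 FPKM in CD24low stroma, against 0.177 and 0.0406 FPKM in Sox10+EpCAM+ fMaSC and 16.7 and 2.20 FPKM in CD24+CD49f+ fMaSC. Both were higher in the reporter sort, by 4.17 (SE 0.61, limma adjusted p = 0.00491) and 4.83 (SE 0.89, limma adjusted p = 0.0114), and neither passed in the CD24 and CD49f sort. The Cfd call was lost with no filter on low values (limma adjusted p = 0.056) and without Sox10+EpCAM+ replicate 1 (0.0502). Agt and Rbp4, secreted by fat and by other tissues, had folds of 5.98 (SE 0.52, limma adjusted p = 0.000891) and 4.67 (SE 0.36, limma adjusted p = 0.000614) in the reporter sort. Slc2a4, the insulin-responsive glucose transporter GLUT4, had 4.04 FPKM in EpCAM-negative stroma and 5.51 and 4.33 FPKM in CD24low stroma, against 6.13 and 5.47 FPKM in Sox10+EpCAM+ fMaSC and 3.90 and 4.18 FPKM in CD24+CD49f+ fMaSC, and did not pass in either sort. Sncg did not pass in either sort, with 1.47 FPKM in EpCAM-negative stroma and 2.65 FPKM in each CD24low library. Its values were 2.30 and 2.20 FPKM in Sox10+EpCAM+ fMaSC and 7.81 and 1.85 FPKM in CD24+CD49f+ fMaSC. Every stroma library held Adipoq, Retn and Cfd at 18.6 FPKM or more, beside Lep at 1.15 FPKM or less.

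Of the brown and beige fat genes, Ucp1, the uncoupling protein of brown fat, had 0.0730 FPKM in EpCAM-negative stroma and 0.316 and 0.109 FPKM in CD24low stroma, about 3, 14 and 4 fragments, against 0.0906 and 0.124 FPKM in Sox10+EpCAM+ fMaSC and 0.162 and 0.0485 FPKM in CD24+CD49f+ fMaSC. The stroma and fMaSC values overlapped, and Dio2, Elovl3, Otop1 and Zic1 also stayed under 1 FPKM in all 7 libraries. In the reporter sort 13.6% of all genes tested were higher and 12.5% lower, and in the CD24 and CD49f sort 10.7% were called in either direction. Of the 9 genes of this list that were tested, 4 were higher and 1, Ppargc1a, lower in EpCAM-negative stroma than in Sox10+EpCAM+ fMaSC, and none passed in the CD24 and CD49f sort. Those higher were Ebf2, Tmem26, Tbx1 and Lhx8, of which Tmem26, a surface protein of beige precursors, had 5.44 FPKM in EpCAM-negative stroma and 7.97 and 7.52 FPKM in CD24low stroma. Ebf2 was the most abundant of them in stroma, with 15.5 FPKM in EpCAM-negative stroma and 22.2 and 20.6 FPKM in CD24low stroma. Of the 4, 2 were left without Sox10+EpCAM+ replicate 1, where Tmem26 had a limma adjusted p of 0.0509. Tbx1 and Lhx8 passed the filter on low values through the stroma libraries. The Ppargc1a call was lost in 5 of 13 alternatives, namely no filter (limma adjusted p = 0.0863), TPM scaling (0.179), without mitochondrial genes (0.132) and without Sox10+EpCAM+ replicate 1 or 2 (0.125 and 0.0988). Cidea had 0.0361 FPKM in EpCAM-negative stroma and 5.20 and 1.25 FPKM in CD24low stroma, and Cox8b had 1.12 FPKM in EpCAM-negative stroma and 5.95 and 3.60 FPKM in CD24low stroma. Neither passed in any comparison, and in none of these pathway lists was a gene called between the stroma fractions.

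**Figure D4:**
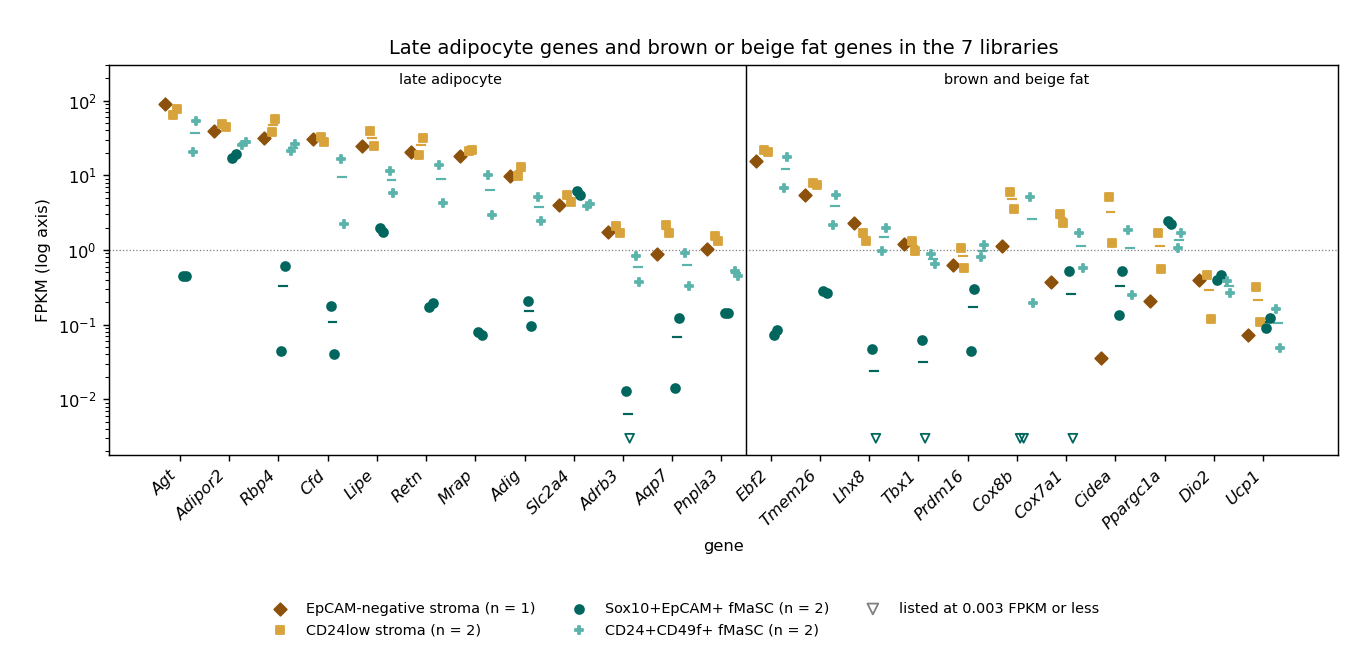
FPKM (log axis) of 12 late adipocyte genes and 11 brown or beige fat genes in the 7 libraries, with a horizontal bar at each group's mean and a dotted line at 1 FPKM. Sncg and Tusc5 of the late list and Elovl3, Otop1 and Zic1 of the other list are not drawn. Retn and Cfd lie between 18.6 and 32.9 FPKM in the stroma libraries, and Ucp1 lies under 1 FPKM in all 7.

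Over all genes tested the median log2 fold was -0.09 in the reporter sort and -0.13 in the CD24 and CD49f sort. The lists' medians in the reporter sort were 2.94 for progenitor genes, 1.56 for lipolysis, 1.10 for lipid droplet genes, 1.09 for brown and beige fat genes, 1.08 for transcription factors, 0.56 for synthesis and 0.31 for restraint. In the CD24 and CD49f sort they were 0.97 for progenitor genes, 1.28 for lipolysis, 1.01 for lipid droplet genes, 0.83 for brown and beige fat genes, 0.44 for transcription factors, 0.44 for synthesis and 0.33 for restraint. Calls were followed through the alternatives for genes picked from these lists by the naming rule given below. Mgll is among these genes, and those named only to spell out a count are not. For them 22 of 31 calls in the reporter sort and 5 of 17 in the CD24 and CD49f sort were kept in every alternative. In the reporter sort, leaving out Sox10+EpCAM+ replicate 1 took the late adipocyte genes called higher to 8, the lipolysis genes to 4, the transcription factors to 4 and the progenitor genes to 6. In the CD24 and CD49f sort no late adipocyte, lipolysis or lipid droplet gene was called higher without either CD24low library or without either Sox10+EpCAM+ library, while 4 or 5 progenitor genes were.

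The genes whose profile over the 7 libraries lay nearest to the average of the 10 were Igfbp6, Plac9b, Angptl1, Plac9a and Nnmt, with root mean square distances of 0.16, 0.20, 0.23, 0.24 and 0.27 on the centred log2(FPKM + 1) scale. Igfbp6, which binds insulin-like growth factors, had 36.1 FPKM in EpCAM-negative stroma and 40.9 and 54.0 FPKM in CD24low stroma, against 0.390 and 0.324 FPKM in Sox10+EpCAM+ fMaSC and 16.4 and 9.50 FPKM in CD24+CD49f+ fMaSC. Plac9a and Plac9b are near-identical copies whose reads may have been split between them. The measure is a description over 7 libraries of 4 groups.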

How the data were processed

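RNA from 7 sorted fetal mouse mammary fractions was made into libraries with an Illumina TruSeq RNA kit and sequenced as paired reads, per the labels' protocols. The authors deposited FPKM values per gene, and the submitters' processing notes name STAR, Cufflinks and the builds GRCm38 and mm10, with versions and strand setting not given in the sources used here. Of the entries, 8 added sequences were left out, 38579 remained, and 36664 (95.0%) were named by Ensembl ID from GENCODE vM21. The members were matched by Ensembl ID because the table writes most symbols in upper case. The members and lists were chosen with earlier results of these data known.

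Groups came from the sample titles and labels. Values were tested as log2(FPKM + 1) with limma 3.58.1 in R 4.3.3 (4 group means, mean-variance trend, 3 residual degrees of freedom, two-sided) over 14418 genes at 1 FPKM or more in at least 2 libraries, with Benjamini-Hochberg adjustment. The p-values measure the spread between these libraries, and the spread of EpCAM-negative stroma, 1 library, was taken from the other groups. Besides the members, the genes named in each pathway list were up to 4 called in a comparison of stroma with fMaSC or between the stroma fractions, by largest absolute fold, and up to 2 called in none of these, by highest mean FPKM, and others named to spell out a count were chosen after their values were seen. The genes nearest in profile were the 5 at the lowest distance. Depth was estimated from the steps between low values, of which 75.6% to 82.8% lay within 0.15 of a whole fragment number, too few to recover counts. One fragment on a 2 kb transcript was worth 0.0146 to 0.0220 FPKM, and values near it carry counting error that FPKM do not show. Alternatives changed the pseudocount, filter, scaling, trend or one library. Tables and figures were made in Python 3.11.15 with pandas 2.3.3, numpy 2.4.6 and matplotlib 3.10.9, and the fit was tested on simulated data.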

Additional observations from a re-analysis of the deposited data

Results flagged for a closer look

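The stroma-minus-fMaSC log2 fold was larger in the reporter sort than in the CD24 and CD49f sort, by the interaction term in limma, for 4 of the 10 fat genes: Lpl by 5.03, Car3 by 4.93, Pparg by 3.28 and Plin1 by 2.70. Among the other genes named, the difference between the sorts was 5.19 for Dpt, 4.92 for Agt, 3.72 for Rbp4, 3.61 for Ebf1, 3.55 for Cd34, 3.46 for Pdgfrb and 3.06 for Ptrf. None of the 4 fat gene calls was kept in every alternative, and each was lost without either CD24low library and without either Sox10+EpCAM+ library.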

How the results depend on the processing

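No paired analysis was possible because the labels number no replicates in a way that ties libraries of different groups to each other. Of the calls for the 10 genes, 9 of 10 were kept in every alternative in the reporter sort, 0 of 8 in the CD24 and CD49f sort, 6 of 9 between the fMaSC fractions and 0 of 4 for the difference between the sorts. Members called in the reporter sort numbered 9 to 10 and between the stroma fractions 0 throughout. In the CD24 and CD49f sort, 5 were called with no filter on low values and 1 to 10 with one library left out. Between the fMaSC fractions 6 to 9 were called with one library left out, and for the difference between the sorts 2 with no filter and 0 to 7 with one library left out. Over all genes, the reporter sort gave 3762 calls, but 2487 with a 5 FPKM filter, 2128 (1550 higher, 578 lower, against 1959 and 1803) with TPM scaling, 2375 (1644 higher, 731 lower) without mitochondrial genes, and 1674 to 5758 with one library left out. The CD24 and CD49f sort gave 1545 (424 higher, 1121 lower), but 971, 509, 720 and 426 to 2353 under the same changes, and 772 higher and 855 lower with quantile normalization and 681 higher and 978 lower with TMM. The stroma fractions gave 4, but 235 with no filter and 0 to 11 with one library left out. The fMaSC fractions gave 1440 (281 higher, 1159 lower), but 724 with no filter, 893 with a 5 FPKM filter, 425 (13 higher, 412 lower) with TPM, 543 (20 higher, 523 lower) without mitochondrial genes and 269 to 2509 with one library left out, and 526 higher and 816 lower with quantile normalization. The difference between the sorts gave 218, but 421 with a pseudocount of 0.1, 43 (34 higher, 9 lower, against 207 and 11) with TPM, 104 with quantile normalization, 63 without mitochondrial genes and 4 to 974 with one library left out. Cebpa between the stroma fractions (-0.13) was 0.15 with TPM, 0.019 without mitochondrial genes and 0.022 to -0.28 without CD24low replicate 1 or 2, and Lep in the difference between the sorts (0.03) was -0.26 with quantile normalization. TPM moved the median log2 fold of all genes to 0.59 in the reporter sort, 0.11 in the CD24 and CD49f sort, 0.22 between the stroma fractions and -0.22 between the fMaSC fractions. The cause of these changes was not tested. Leaving out mitochondrial genes was chosen after seeing the data. Lep was not tested with the 5 FPKM filter or without either CD24low library, and without the EpCAM-negative library 3 comparisons have no value.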
